A study of Mus musculus with 9 samples.

Results

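The comparison described here set mouse retinal organoids of a pair of knockout lines against wild type at day 10 of differentiation (DD10), on 3 of the 9 arrays of the study. B4KO carried a knockout of Bhlhb4 (the gene is now called Bhlhe23), Isl1KO a knockout of Islet-1, and WT, which the submitters also call NCT, was the wild-type line. The lines were made to obtain organoids with fewer bipolar cells, the interneurons between photoreceptors and ganglion cells. Organoids were grown from mouse ES or iPS cells by floating reaggregation culture (SFEBq), and each sample was the RNA of 5 pooled organoids on 1 single-colour array. The labels name neither the clones, nor the parent line, nor the position of the edits, and give no age or sex. Genes were kept where a minimum of 2 of the 3 DD10 arrays called the spot well above background, which left 21454 of the 37297 genes on the design. Of these, 14185 genes (66.1%) had a difference of the same sign from WT in both knockouts, and they are the genes described below. Since both differences use the same WT array, an unusual value on that array gives the same sign to both, and with 1 array per line there is no test, no p-value and no spread between replicates. The question put to the values was whether the WT sample held more forebrain RNA of non-retinal kind and less RNA of optic progenitors than the knockouts.

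In the embryo the retina and the telencephalon arise side by side from the anterior neural plate. Cells of the eye field turn on Rax, Six3, Six6 and Pax6, while the dorsal telencephalon turns on Emx2 and makes cortical neurons that carry Tbr1. At its dorsal edge lie the cortical hem, a source of Wnt, R-spondin and BMP signals, and the choroid plexus, which makes cerebrospinal fluid. Aggregates of stem cells in SFEBq culture can form both kinds of tissue, so the organoids that are collected may carry both.

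Levels are given as the log2 of the processed spot intensity over the 75th percentile of the array, in the order WT, B4KO and Isl1KO at DD10 unless another order is stated. A level belongs to 1 probe and is not compared between genes. Of 59305 gene spots, 59.5% (WT), 59.3% (B4KO) and 64.2% (Isl1KO) were well above background and none was saturated, and the 75th percentile was 1134, 1079 and 1138. The B4KO array lay on a slide of its own line with a scan of its own, while WT and Isl1KO shared a slide, so the difference of Isl1KO from WT is within a slide, and line and slide cannot be told apart for B4KO. The 8 probes for added control RNA read higher than on WT by a median of 0.13 in each knockout, with a range of -0.72 to 0.26 in B4KO and 0.06 to 0.16 in Isl1KO. Genes that define the retina were bright in every sample, with Rax, the eye field homeobox gene, at 4.23, 5.49 and 5.28. Isl1 itself read -0.60, 0.92 and -1.24, lowest in Isl1KO (chr13:117099604-117099663, build mm9, as all probe positions here). A further Isl1 probe had a mean difference from WT of 0.83 over both knockouts, and its direction in each knockout is not given here. No label says where the gene was edited, so neither probe checks the label. Bhlhe23 read -3.20, -3.41 and -2.95, a range that does not set B4KO apart at this age.

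At least 2-fold differences in the same direction in both knockouts were found for 88 higher genes (0.41% of those compared) and 270 lower genes (1.26%). Most genes differed little, and the median difference over all genes was 0.00 in B4KO and 0.01 in Isl1KO. Without a size limit 7367 genes (34.3%) were higher in both and 6818 (31.8%) lower in both. The counts of list members below are to be set against these shares. The balance of the 2-fold counts depended on the scaling. With the arrays aligned on the added control RNA, it was 51 higher and 481 lower, and after quantile normalization 153 higher and 209 lower. Counted for each knockout by itself, B4KO alone had 290 higher (1.35%) and 2076 lower genes (9.68%) and Isl1KO alone 176 (0.82%) and 443 (2.06%). Of the 88 higher genes, 38 passed the filter on 2 arrays only, in each case with WT as the dim array, and 100 of the 270 lower genes had a dim knockout. The filter leaves out genes seen on 1 array alone, of which there were 421 on WT, 447 on B4KO and 1608 on Isl1KO. Just inside the limit lay Zbtb16 at 1.03 and 1.02 and Syn2 at -1.01 and -1.02, and just outside it Dpf3 at 0.997 and 1.11 and Ryr3 at -0.996 and -2.29, all as B4KO and Isl1KO minus WT.

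**Figure D1:**
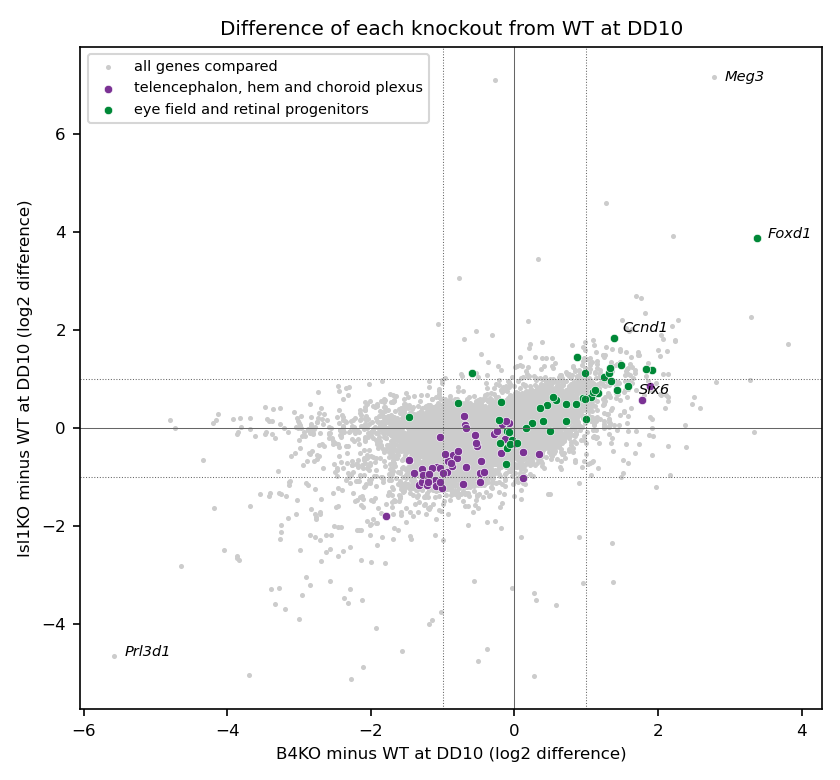
Difference of B4KO from WT (horizontal axis) and of Isl1KO from WT (vertical axis) at DD10, in log2 units, for the 21454 genes compared (grey), with members of the telencephalon, hem and choroid plexus lists in purple and of the eye field and progenitor lists in green; dotted lines mark 2-fold. Most purple points lie lower left and most green points upper right, with a few purple points among the green, and Prl3d1 lies farthest toward lower values in both knockouts among the labelled genes.

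Genes of the telencephalon were lower in both knockouts than in WT. Of 29 genes on the list, 27 passed the filter, and 19 were lower in both, 3 higher in both and 5 split between the knockouts. The median difference was -0.79 in B4KO and -0.84 in Isl1KO, against 0.00 and 0.01 for all genes. No member was higher by 2-fold in both knockouts and 8 were lower by that much. In 15 of the 27 passing members, WT lay above both knockouts and farther from the nearer one than the knockouts lay from each other. Over all 21454 genes compared this held for 3012 (14.0%), out of the 6818 lower in both. In bulk RNA, fewer cells of a kind and less RNA per cell cannot be told apart, here and in every list below.

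Emx2, a homeobox gene of the dorsal telencephalon, read 3.91 in WT, 2.59 in B4KO and 2.74 in Isl1KO (chr19:59539650-59539709), which is 2.50-fold and 2.24-fold lower. Its relative Emx1 read 0.43, -0.68 and -0.64. Both knockouts stood together below WT for each of these genes. Dmrt3, a doublesex-related factor of the medial pallium, read 0.89, -0.20 and -0.30. Dmrta2, of the same family, read 1.69, 0.41 and 0.85. Both knockouts were below WT for each.

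Genes of differentiating cortical neurons differed in the same way. Tbr1, a T-box factor of early-born cortical neurons, read 3.97, 2.68 and 2.86 (chr2:61652093-61652152), or 2.44-fold and 2.15-fold lower. Eomes, a T-box factor of cortical intermediate progenitors that is also used by a set of retinal ganglion cells and by trophoblast, read 1.55, 0.33 and 0.39. Neurod2 and Neurod6, basic helix-loop-helix factors of cortical projection neurons, showed the same order of samples. Neurod2 read 1.16, 0.15 and -0.08. Neurod6 was near the floor of the arrays, at -2.70, -4.49 and -4.50, so that its 3.45-fold and 3.47-fold differences rest on dim spots. Reln, the secreted protein of Cajal-Retzius cells, was lower by less than 2-fold, at 3.26, 2.47 and 2.64, with 6 of 6 probes lower in both knockouts.

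Not every member of the list went this way. Dlx1 and Dlx2, homeobox genes of ventral forebrain that are used in retinal ganglion cell development too, were higher in both, with Dlx1 at -2.95, -1.06 and -2.09 and Dlx2 at -1.45, 0.32 and -0.89. The ventral genes Lhx6 and Lhx8 were split, Nkx2-1 was well above background on B4KO alone and Dlx6 on none. Nr2f1 and Nr2f2, orphan receptors of caudal forebrain, were close to WT, Nr2f1 differing by -0.07 and 0.10 and Nr2f2 by 0.005 and -0.33. The lower members were thus mainly dorsal and cortical genes, whereas Dlx1 and Dlx2 were lowest in WT.

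The cortical hem and choroid plexus list was lower in both knockouts for 23 of its 28 passing members (29 listed) and higher in both for 0. Its median difference was -0.83 in B4KO and -0.70 in Isl1KO, and WT stood apart above both knockouts in 19 of the 28. The R-spondins, secreted enhancers of Wnt signalling, were among the largest differences. Rspo3 read 4.69, 3.48 and 3.63 (chr10:29172930-29172989), 2.31-fold and 2.10-fold lower, and both of its probes agreed in direction. Rspo2 read 3.66, 2.38 and 2.68, and Rspo1 5.84, 4.76 and 5.05. WT was highest and the knockouts close together for all of them. The Wnt ligands differed in the same direction. Wnt8b, of the hem and the medial pallium, read 3.62, 2.58 and 2.51. Wnt3a, the ligand that the hem is best known for, read 1.75, 0.83 and 1.07, and Wnt5a 1.40, 0.52 and 0.61. None of these ligands reached WT in either knockout.

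Transcription factors of the hem and its derivatives followed. Lmx1a, a LIM homeobox gene of the hem and roof plate, read 2.54, 1.51 and 1.71. Lhx5, a LIM homeobox gene of the hem, read 1.84, 0.64 and 0.73. Trp73, the p53 relative of Cajal-Retzius cells and of multiciliated cells, read 1.76, 0.37 and 0.83. Gmnc, a geminin relative that starts the multiciliated cell programme, read 1.62, 0.43 and 0.68, and Ccno, which acts in the same programme, read 2.61, 1.61 and 1.70. Both knockouts were below WT for each of these genes, while Mcidas, a further gene of that programme, read 4.33, 3.65 and 4.34 and set only B4KO apart. Choroid plexus genes as such differed little, with Ttr, the thyroid hormone carrier of choroid epithelium, at 3.02, 2.83 and 2.51, Folr1 at 2.64, 2.39 and 2.58, and Kcnj13 at -0.60, -0.71 and -0.45. The chloride channel gene Clic6 was the exception among the choroid genes, at 2.22, 1.25 and 1.68. The difference in this list therefore lay mainly in hem signals and hem factors.

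**Figure D2:**
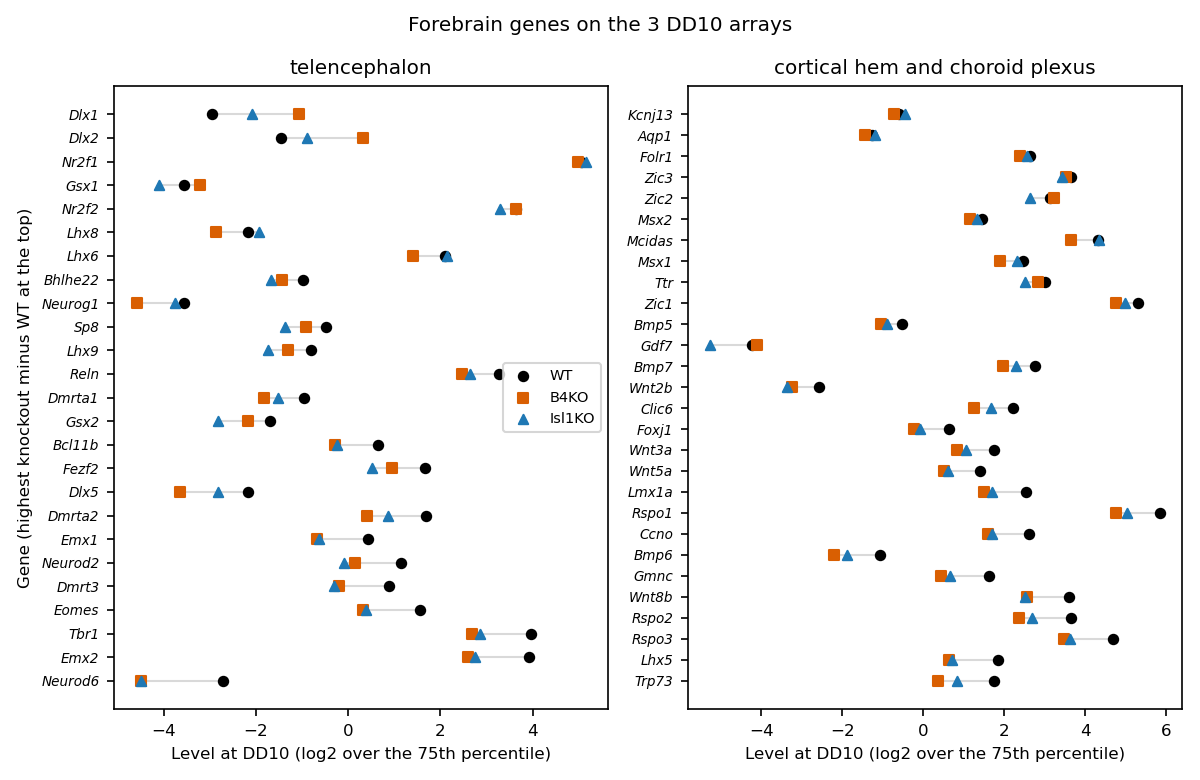
Level of the passing genes reported of the telencephalon list (left) and of the cortical hem and choroid plexus list (right) on the WT, B4KO and Isl1KO arrays at DD10, in log2 units over the 75th percentile; each point is 1 array. WT is the rightmost point for most genes, including Emx2 (3.91 against 2.59 and 2.74) and Rspo3 (4.69 against 3.48 and 3.63), and the leftmost for Dlx1 and Dlx2.

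Eye field and optic cup genes were higher in both knockouts. Of 26 listed genes 25 passed, and 18 were higher in both, 3 lower in both and 4 split, with median differences of 0.87 in B4KO and 0.61 in Isl1KO. At least 2-fold in both were 4 higher genes and 0 lower. WT lay apart below both knockouts in 15 of the 25 passing members. Over all 21454 genes compared this held for 3736 (17.4%), out of the 7367 higher in both.

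Rax, the homeobox gene that first marks the eye field, read 4.23 in WT and 5.49 and 5.28 in the knockouts, 2.38-fold and 2.07-fold higher. Six3, a homeobox gene of the eye field and anterior forebrain, read 1.53, 2.85 and 2.65 (chr17:86023349-86023408), with both probes higher. Six6, its close relative in the optic vesicle, read 2.40, 3.98 and 3.26. In each case both knockouts exceeded WT, and B4KO exceeded Isl1KO. Pax6, which the telencephalon also uses, differed less, at 3.49, 4.08 and 4.06, with 6 of 6 probes higher in both knockouts. Lhx2, shared with the telencephalon as well, was split, 0.50 above WT in B4KO and at -0.07 in Isl1KO, and Otx2, of forebrain and pigment epithelium, was lower in both at 5.40, 5.29 and 4.99. Pax6, Lhx2 and Otx2 were thus nearer to WT than Rax, Six3 and Six6.

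Genes that divide the optic cup into regions were higher on several sides. The dorsal T-box genes Tbx2 (3.16, 4.32 and 3.87), Tbx3 (2.42, 3.84 and 3.20) and Tbx5 (2.57, 3.63 and 3.21) were all higher in both knockouts. Foxd1, the forkhead gene of the temporal retina, was not well above background in WT (-6.54) and read -3.16 in B4KO and -2.65 in Isl1KO, at least 2.57-fold and 3.66-fold higher. Such bounds were computed against the higher of the lowest signal well above background on the dim array and the probe's own signal there. The ventral genes did not move together, with Vax2 at 1.72, 0.94 and 2.22 and Pax2, of the optic stalk, at -1.15, -1.74 and -0.03, each lower in B4KO and higher in Isl1KO. Vax1, of the stalk, was well above background on Isl1KO alone.

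Retinal progenitor genes were higher in both knockouts for 12 of 20, lower in both for 4 and split for 4, with medians of 0.43 in B4KO and 0.50 in Isl1KO. At least 2-fold in both were 5 members, namely Ccnd1, Sfrp2, Dapl1, Foxn4 and Fzd5, and no member was lower by that much. Ccnd1, the D-type cyclin of retinal progenitors, read 2.15, 3.54 and 3.98 (chr7:152116202-152116261), 2.62-fold and 3.56-fold higher. Sfrp2, a secreted Wnt inhibitor of the early retina, read 3.78, 5.12 and 5.02. Foxn4, a forkhead gene that prepares progenitors for amacrine and horizontal fates, read 2.20, 4.04 and 3.41. Both knockouts were above WT for each of the 3. Fzd5, a Wnt receptor of the eye field, read -1.46, 0.45 and -0.28, and Fgf15, a ligand of the neural retina, 0.82, 1.92 and 1.55. Of genes that progenitors of many tissues share, Sox2, Sox9 and Hes5 were not higher in both knockouts. Sox2 read 3.47, 3.63 and 3.46, Sox9 1.03, 0.96 and 0.70, and Hes5, a Notch target, 4.70, 4.57 and 3.95. Notch1 was lower in B4KO alone, at -0.23, -1.69 and 0.00, and its 2 probes gave opposite mean differences.

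**Figure D3:**
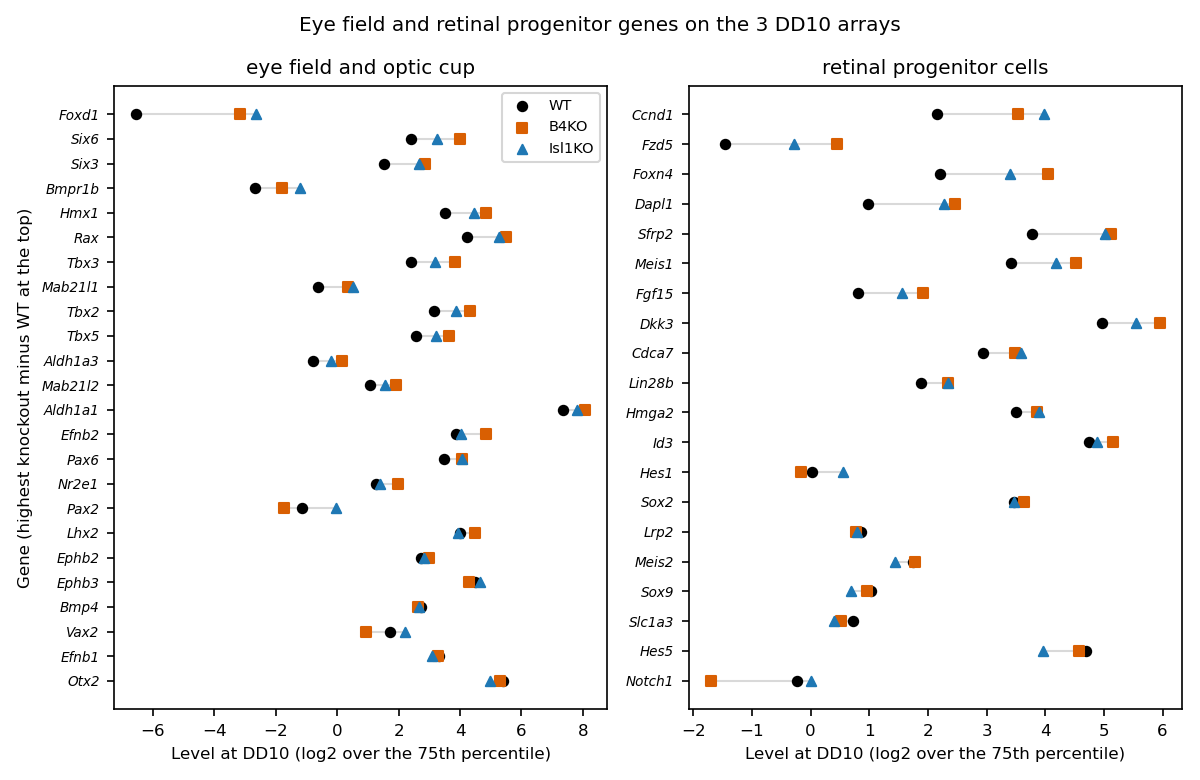
Level of the passing genes reported of the eye field and optic cup list (left) and of the retinal progenitor list (right) on the 3 DD10 arrays, in log2 units over the 75th percentile; each point is 1 array. WT is the leftmost point for most of the upper genes, including Six6 (2.40 against 3.98 and 3.26) and Ccnd1 (2.15 against 3.54 and 3.98).

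Beside these lists, cell cycle genes were higher in both knockouts for 20 of 26 and lower for 1, but by small amounts, with medians of 0.29 and 0.13 and 0 members past 2-fold. Mcm5, a subunit of the replicative helicase, read 2.87, 3.13 and 3.31. Genes of the retinoic acid pathway were higher in both for 8 of 12 passing members (15 listed), with medians of 0.62 and 0.44. Crabp1, a binding protein for retinoic acid, read 4.62, 5.92 and 5.59. Cyp26a1 and Cyp26b1, enzymes that break retinoic acid down, went opposite ways. Cyp26a1 was not well above background in WT (-4.41) and was at least 3.24-fold and 6.47-fold higher in the knockouts, at -2.72 and -1.72. Cyp26b1 read -1.54, -2.81 and -2.64, or 2.40-fold and 2.14-fold lower.

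Genes of neurogenesis did not share a direction. Of 20 neurogenic progenitor genes 7 were higher in both, 7 lower in both and 6 split, with medians of 0.11 and -0.23. Atoh7, the basic helix-loop-helix factor needed for retinal ganglion cells, read 3.55, 5.52 and 4.47 and was 3.93-fold and 1.90-fold higher. The Notch ligand gene Dll1 read 1.23, 0.76 and 0.27, and Dll3 differed from WT by -0.56 and -0.63. The factor genes of retinal ganglion cells were split too. Pou4f2, a POU factor of ganglion cells downstream of Atoh7, read 0.03, 2.17 and 1.14, 4.38-fold and 2.15-fold higher, while 9 of the 14 passing members of the ganglion cell list were split, with medians of 0.69 and -0.33. Pan-neuronal genes were lower in both knockouts for 12 of 13, with medians of -0.26 and -0.52 and none past 2-fold. Map2, the dendritic microtubule protein, read 3.84 in WT and differed from it by -0.74 and -0.83, with 7 of 7 probes lower, and Rbfox3, the neuronal nuclear antigen, 0.89, 0.00 and 0.16. WT thus had the lowest Atoh7 and Pou4f2 and the highest general neuronal RNA of the 3 samples.

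Among genes with an established symbol that passed the filter, the largest difference toward WT in both knockouts was in a gene of the placenta. Prl3d1, which encodes a placental lactogen of trophoblast giant cells, read 1.30 in WT, -4.27 in B4KO and -3.36 in Isl1KO (chr13:27192036-27192095), 47.7-fold and 25.2-fold lower in the knockouts. It belongs to the placental prolactin family, a cluster of related hormone genes on mouse chromosome 13, of which 23 were on the design. The family was looked at as a group after these values were seen. At DD10, 14 of the 23 were well above background in WT, 2 in B4KO and 4 in Isl1KO, and 10 of the 14 were so in WT alone. All 37292 genes of the design were read in the same way, each from its probe brightest on WT at DD10. The shares well above background were 57.4% in WT, 56.2% in B4KO and 61.5% in Isl1KO, and 1.23% were so in WT alone. Picking the probe on WT can favour WT both in the family and in these shares. At DD16 the family counts were 4, 2 and 7, and at DD23 5, 4 and 5. The members are close relatives, and a probe may read more than 1 of them, so the 14 are not 14 separately measured genes.

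Prl2c5, of the proliferin group, was seen in WT alone, at 1.91 with -6.93 and -7.41 in the knockouts, at least 109-fold and 141-fold higher in WT (chr13:13283943-13284002). Prl3d2, a near copy of Prl3d1, read 0.85 in WT and was at least 52.1-fold and 67.6-fold above the knockouts, whose spots were at -7.08 and -7.01. Prl2a1 read 0.46 in WT and was at least 39.7-fold and 51.6-fold higher. None of the 3 was well above background in either knockout at DD10. Prl3b1, a placental lactogen of later pregnancy, read 0.12, -4.52 and -2.71 and was not well above background in B4KO. Prl2c1 was, like Prl3d1, well above background on all 9 arrays, and at DD10 it differed less, at 1.11, -0.18 and 0.05, with WT the highest. The WT sample itself no longer had these levels later, with Prl2c5 at -6.33 at DD16 and -7.10 at DD23, neither well above background, and Prl3d1 at -3.54 and -3.07. In B4KO at DD23 Prl2c5 at -3.47 and Prl3d2 at -4.58 were well above background.

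The promoters of Prl3d1 and Prl3d2 are shown because these near copies gave some of the widest gaps between WT and both knockouts. Each is the 250 bases before the annotated start on the plus strand, from the RefSeq promoter table of GRCm38.p6, at chr13:27093939-27094188 and chr13:27121445-27121694, written 5′ to 3′, with the single match to TGANTCA, a binding sequence of AP-1 factors, in capitals.
Prl3d1: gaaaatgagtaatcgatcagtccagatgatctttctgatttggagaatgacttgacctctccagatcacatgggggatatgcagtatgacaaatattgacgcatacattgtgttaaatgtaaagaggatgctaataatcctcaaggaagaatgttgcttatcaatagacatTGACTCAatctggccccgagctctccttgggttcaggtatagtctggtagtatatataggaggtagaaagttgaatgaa
Prl3d2: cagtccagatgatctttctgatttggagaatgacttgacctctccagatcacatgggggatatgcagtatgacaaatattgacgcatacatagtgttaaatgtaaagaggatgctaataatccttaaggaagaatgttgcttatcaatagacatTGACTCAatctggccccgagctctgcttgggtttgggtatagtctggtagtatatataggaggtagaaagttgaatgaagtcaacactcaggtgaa
The capitals lie in a stretch that the copies share. On both strands of the 250 bases, TGANTCA was found in 7 of the 21 family promoters in the table (33.3%) and in 1856 of all 27025 promoters (6.87%). AGATAA, which factors of the GATA family bind, was found in 8 of 21 (38.1%) and in 2771 of all (10.3%), and neither motif contains the other. The family promoters are related by descent, and the motifs were picked after the values were seen, so these shares are a description.

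**Figure D4:**
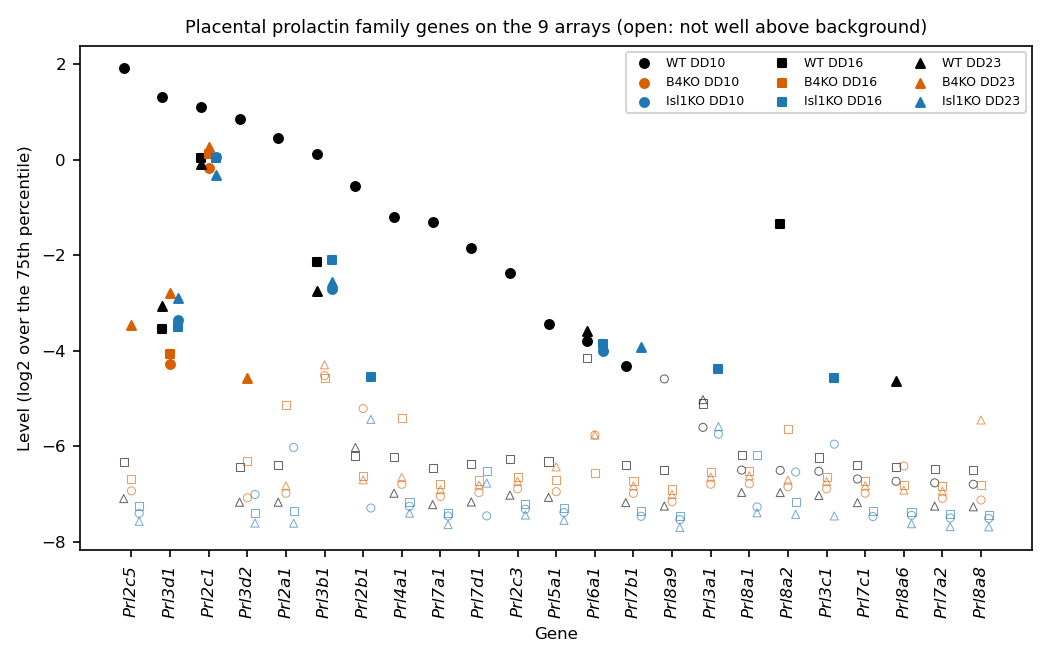
Level of the 23 placental prolactin family genes on all 9 arrays, in log2 units over the 75th percentile, with filled symbols for spots well above background and open symbols for the rest; colour gives the line and shape the day. The WT array at DD10 has 14 filled symbols, among them Prl2c5 at 1.91, against 2 for B4KO and 4 for Isl1KO on the same day.

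A wider list of 25 trophoblast genes, also written after these values were seen, had 13 passing members, of which 10 were lower in both knockouts, 0 higher in both and 3 split, with medians of -0.72 and -0.91. Elf5, a factor of trophoblast stem cells, was well above background in WT alone (-1.60, with -5.36 and -7.29 in the knockouts), as was Ctsq, a placental cathepsin (-3.11, with -6.83 and -7.29). Rhox5, an X-linked homeobox gene of placenta and testis, read -1.55, -4.54 and -4.05, with B4KO not well above background. Krt8, a keratin of simple epithelia, read 0.32, -1.97 and -2.11, 4.91-fold and 5.38-fold lower, with both probes lower. Its partner Krt18 differed less, at 4.14, 3.60 and 3.33. Other trophoblast genes gave no such gap, since Cdx2, Hand1 and Plac1 were not well above background on any of the 3 arrays, Gata3 read -1.47, -0.65 and -1.60, and Gcm1 5.59, 5.39 and 5.63. The part of RNA from such cells in the other differences was not tested.

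Markers of further tissues that organoids can carry were mostly lower in the knockouts or too dim to read. Over all genes compared, 31.8% were lower and 34.3% higher in both knockouts. Of 17 neural crest and mesenchyme genes 9 passed, with 8 lower in both, medians of -0.46 and -0.68, and Sox10, the crest and glial factor, at -2.87, -4.11 and -4.26. Of 20 diencephalon and hypothalamus genes 13 passed, with 8 lower and 1 higher in both, medians of -0.18 and -0.76, and Foxb1, a forkhead gene of the mammillary region, at -1.71, -3.77 and -3.61. These 2 lists lay on the side of the telencephalon list. Of 12 endoderm genes only 4 passed, among them Foxa1 at -2.46, -6.65 and -4.09, with B4KO not well above background. Of 21 midbrain, hindbrain and spinal cord genes 10 passed, with 6 lower and 2 higher in both. Pigment epithelium genes were lower in both for 10 of 14, by medians of -0.17 and -0.27 only, with Tyrp1, an enzyme of melanin synthesis, at 1.63, 1.36 and 1.26. Ciliary margin genes were lower in both for 7 of 10 and higher in 1, with medians of -0.53 and -0.19. Of 17 lens and surface ectoderm genes 11 passed, with 8 lower and 2 higher in both. Pluripotency genes were lower in both for 5 and higher for 2 of 9 passing. The part of these tissues in the differences was not tested either.

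The other genes at the head of the ranking were of mixed kind. Among the 15 largest differences toward WT were Tfap2e, an AP-2 factor, at -1.59, -4.17 and -4.72, Lgals3, a galectin with both probes lower, at -1.39, -4.02 and -3.93, and Hbb-bh1, an embryonic globin, at -2.30, -5.08 and -4.54. Nts, the gene of the neuropeptide neurotensin, read -2.14, -4.33 and -4.22. Rgs9, a regulator of G protein signalling, read -0.69, -3.15 and -3.31 on its brightest probe, but only 2 of its 4 probes were lower in both. Of the 15 largest differences toward the knockouts, 13 had WT below the background limit and are bounds or have no fold. Prdm13, a zinc finger factor of amacrine cells, read -6.07, -3.85 and -2.13, at least 1.59-fold and 5.22-fold higher. Meg3, a maternally expressed imprinted RNA, was measured on all 3 arrays at -4.19, -1.40 and 2.99, 6.88-fold and 144-fold higher, so that the knockouts differed from each other more than B4KO did from WT. Slc13a5, a citrate carrier, read -3.37, -1.81 and -1.33.

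The later arrays, which the choice of genes did not use, each had their own WT. Of the 88 higher genes, 2 were higher by 2-fold in both knockouts again at DD16 and 1 at DD23, and of the 270 lower genes 9 and 12 were lower again. Over all genes compared at DD16, 0.138% (29 genes) were higher and 0.585% (123) lower by that much in both, and at DD23 0.112% (26) and 0.726% (169). Without a size limit, 44 of the 88 higher genes were higher in both at DD16 and 15 lower in both, and 44 and 18 at DD23. Of the 270 lower genes, 114 were lower in both at DD16 and 46 higher in both, and 133 and 45 at DD23. No share over all genes is given beside these counts. No member of the 4 forebrain and eye lists was past 2-fold in both knockouts in either direction at either later day. The telencephalon median was -0.03 in B4KO and 0.03 in Isl1KO at DD16, and -0.02 and 0.05 at DD23. The hem list was at 0.15 and -0.18 at DD16, and at 0.80 and -0.11 at DD23, where B4KO alone was higher. The eye field list was at 0.12 and 0.00 and then 0.32 and 0.09, and the progenitor list at 0.08 and 0.14 and then 0.48 and -0.03.

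At DD16 the lines had like levels of some of the list genes that set WT apart at DD10. Rax read 6.43, 6.30 and 6.22 at DD16, and Six3 3.17, 3.22 and 3.18, with all lines together. In WT the Six3 level had been 1.53 at DD10, while in the knockouts it had been 2.85 and 2.65. Emx2 read 0.71, 0.80 and 0.75 at DD16, below its DD10 level in every line. Rspo3 likewise read 0.06, 0.21 and -0.36. Of the 28 hem and choroid plexus members, 25 were lower at DD16 than at DD10 in each of the lines, with a median change of -2.35 in WT, -1.22 in B4KO and -2.06 in Isl1KO, against 0.00, 0.00 and 0.01 over all genes. Each day is a different set of pooled organoids, so a change between days is also a difference between samples.

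**Figure D5:**
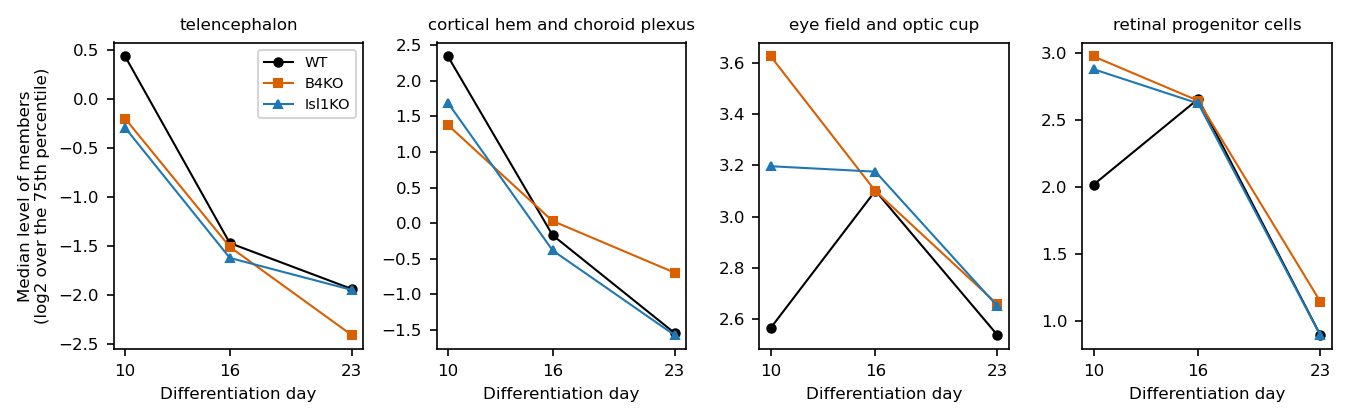
Median level of the passing members of each of the 4 lists on each array, in log2 units over the 75th percentile, against differentiation day; each point is 1 array of 5 pooled organoids and lines join the arrays of a cell line. WT stands above both knockouts in the forebrain lists and below them in the eye lists at DD10, and the 3 lines lie closer at DD16, as for the progenitor list at 2.65, 2.64 and 2.62.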

How the data were processed

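RNA of the 9 samples was hybridised to single-colour arrays, 1 array per line and day. The authors extracted spot intensity using Agilent Feature Extraction (version 12.0.3.1, per the submitters' processing notes). According to the headers this deposited intensity had its background subtracted and was detrended, with no scaling between arrays. Flags of 0 or 1 for spots well above background, saturated or outlying came with it. The authors' deposited value table holds a ratio of intensity to a constant per array. Probe positions follow the design of the array (build mm9).

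Spots of a probe were averaged, values were log2 intensity over the 75th percentile of the gene spots of the array, and the brightest passing probe stood for a gene. Counts of the placental prolactin family, and the shares beside them, used the probe brightest on WT at DD10 instead. Of 56605 gene probes 33895 were named through RefSeq accessions (assembly GRCm38.p6, whose coordinates were used for promoters alone) and 22710 under the designation they carried; 102 probes had an outlier flag on an array. Differences, counts and medians were computed in Python 3.11.15 with pandas 2.3.3 and numpy 2.4.6, plotted with matplotlib 3.10.9, and tested on simulated data. No test was run, since each line had 1 array at DD10, which is what limits the precision. Bounds ("at least") use the higher of the lowest signal well above background on the dim array and the probe's own signal there.

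Named genes were the targeted genes, the 15 largest differences in each direction with an established symbol, the 5 brightest seen in WT alone, all members of the 4 forebrain and eye lists, and the 3 largest in each direction of the other lists. Some genes of the lists are not reported here, though they count in the totals and medians. Genes of the placental prolactin family and of the trophoblast list were added after their values were seen. The members, the 30 lists and the limits were chosen with earlier results of these data known. Alternatives were quantile normalization, normexp background correction (offset 50, limma 3.58.1 in R 4.3.3), other scalings, the authors' deposited ratio, other filters, the mean over probes, raised dim values, other fold limits and leaving out a knockout.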

Additional observations from a re-analysis of the deposited data

Results flagged for a closer look

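The following genes were named at DD10 and lay on the opposite side of WT in both knockouts at a later day; each value is the mean of both knockouts minus WT, on 1 array per line, and the difference between days was not tested. Among genes higher in the knockouts at DD10, the mean at DD16 was -0.66 for Olfr325, -1.83 for Foxd2, -0.56 for F10, -0.28 for Hmx3, -0.17 for Rax and -0.16 for Neurod4. At DD23 it was -0.36 for Foxd2, -0.78 for Cyp26a1, -1.30 for Cryba1, -1.16 for Egr2 and -0.80 for Pou4f2. Olfr325 and F10 at DD16 and Foxd2 on both days were well above background on 0 of the 3 arrays of that day, so these values carry no order. Hmx3 at DD16 was well above background on Isl1KO alone and Egr2 at DD23 on WT alone, and B4KO was dim for Cyp26a1 and Cryba1 at DD23. Most of these genes were dim in WT at DD10, but Rax and Pou4f2 were not.

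Among genes lower in the knockouts at DD10, the mean at DD16 was 0.91 for Ush1c, 0.47 for Lgals3, 0.37 for Krt8, 0.20 for Emx1, 0.058 for Emx2, 0.13 for Lhx5 and 0.73 for Cyp26b1. At DD23 it was 0.23 for Prl3d1, 0.57 for Lgals3, 1.52 for Fgd6, 0.56 for Emx1, 0.48 for Emx2, 0.78 for Tbr1, 0.33 for Eomes and 0.48 for Cyp26b1. Ush1c at DD16 and Emx1 at DD23 were well above background on Isl1KO alone, and WT was dim for Fgd6 at DD23. The dorsal forebrain genes Emx2, Tbr1 and Eomes, measured on all 3 arrays of DD23, were highest in WT at DD10 and lowest in WT at DD23, where their WT levels were lower than at DD10. The DD23 differences from WT were 0.92, 1.34 and 0.47 in B4KO but only 0.05, 0.21 and 0.20 in Isl1KO. At DD16 Krt8 and Cyp26b1 likewise differed by 0.69 and 1.40 in B4KO but by 0.06 and 0.05 in Isl1KO.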

How the results depend on the processing

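Direction was kept by the 4 list medians under every alternative run, and by the 59 named genes past 2-fold except 1. Leaving out a knockout could not reverse those genes, since they were chosen for the same sign in both. Every alternative also used the same WT array, so none of them checks that array. The count of higher genes, 88, was 153 after quantile normalization, 27 after normexp correction, 51 with alignment on added control RNA, 50 with genes well above background on all 3 arrays, 56 with dim values raised, 391 at 1.5-fold and 17 at 3-fold. The count of lower genes, 270, was 209 after quantile normalization, 108 after normexp correction, 481 with alignment on added control RNA, 670 with genes seen on at least 1 array, 172 with genes seen on all 3, 973 at 1.5-fold and 77 at 3-fold. Tighter or looser filters and limits change how many genes can count, and for the other settings the cause was not tested. Leaving out B4KO or Isl1KO, each in turn, the counts were 176 to 290 higher (0.82% to 1.35%) and 443 to 2076 lower. The median over both knockouts of the telencephalon list, -0.71, was -0.66 after normexp correction, and alignment on added control RNA gave -0.90 for it, -0.95 for the hem list (-0.75 otherwise), 0.47 for the eye field list (0.67) and 0.22 for the progenitor list (0.42), since it moves every gene by the same amount on an array. With a knockout left out these medians were -0.84 to -0.79, -0.83 to -0.70, 0.61 to 0.87 and 0.43 to 0.50. The exception was Dennd2d, at -0.10 with dim values raised, where the WT value is the floor of its array. No paired analysis was possible because each line had 1 array per day and the labels number no replicates. Signal over background limits many of the genes that were higher in the knockouts, since 38 of 88 were dim in WT.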

Other observations

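Signalling genes did not share a direction at DD10, and those named here are among the largest differences of their lists. Over all genes compared, 34.3% were higher and 31.8% lower in both knockouts. The list medians, as B4KO and Isl1KO minus WT, were -0.28 and -0.14 for Wnt targets and inhibitors. They were -0.03 and 0.002 for FGF genes and -0.01 and -0.07 for BMP genes. Of 14 passing Wnt targets and inhibitors 9 were lower in both knockouts and 4 higher. Sp5, a direct Wnt target, read 2.64 in WT, 1.34 in B4KO and 1.78 in Isl1KO, and Apcdd1, a Wnt inhibitor, 5.10, 3.69 and 4.17, while Lgr5, an R-spondin receptor, read -0.13, 0.68 and 0.67. FGF genes were 8 higher and 8 lower of 17 passing, with Fgf9, a ligand of the distal optic vesicle, at 0.56, 1.93 and 1.82 and Fgf18 at -1.07, -2.77 and -2.01. BMP genes were 8 higher and 9 lower of 19, with Gdf6, a ligand of the dorsal eye, at -2.05, -0.84 and -1.10 and Bmp6 at -1.06, -2.21 and -1.89. Gli1, a target of Hedgehog signalling, read -0.63, -4.03 and -1.97, while Ptch1, another target, read -0.38, -0.76 and -0.78.

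Imprinted genes had no common direction, with 7 higher and 5 lower in both of 18 passing. Plagl1, a paternally expressed zinc finger factor, read 5.63, 6.77 and 6.93 with both probes higher, and Dlk1 0.82, 0.07 and -0.15. Meg3 stayed high in Isl1KO at 4.80 at DD16 and 5.49 at DD23, whereas WT read -0.46 and 0.86 and B4KO -0.88 and -2.90. Stress and heat shock genes were split between the knockouts in 7 of 12, and hypoxia and glycolysis genes in 11 of 16, with medians of 0.02 and -0.02 and of 0.16 and -0.09. Immediate early genes were lower in both for 5 and higher for 2 of 11 passing, with Fos at -1.14, -1.84 and -1.65.

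Genes of later retinal cell types had no common direction at DD10. The filter was passed by 10 of 15 photoreceptor, 7 of 11 bipolar and 11 of 12 amacrine and horizontal cell genes. Of 10 passing photoreceptor genes 5 were higher and 3 lower in both, with Crx, a homeobox factor of photoreceptor precursors, at 0.42, 1.43 and 0.85. Prdm13, named above as a factor of amacrine cells, was on the photoreceptor list and counts among the 5. Of 11 passing amacrine and horizontal cell genes 4 were higher and 3 lower, with Onecut1, a factor of horizontal and ganglion cells, at 1.05, 2.74 and 1.83. Of 7 passing bipolar cell genes 5 were split. Of 7 passing endothelium, blood and muscle genes 4 were lower and 1 higher, the latter Kdr, a VEGF receptor that retinal progenitors also carry, at 1.32, 1.95 and 2.01.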
